A study of Mus musculus with 3 samples.

Results

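The genes described here encode the proteasome, the barrel-shaped protease that degrades ubiquitin-tagged proteins. They were chosen by name, with earlier results of these data known. The rule took symbols that start with Psma, Psmb, Psmc, Psmd, Psme, Psmf or Psmg followed by a digit, leaving out Psmb8, Psmb9 and pseudogene names. This gave 48 of the 24982 gene symbols in the files. They comprise 17 genes of the core particle, 17 subunits of the regulatory cap, 4 activators, 7 assembly chaperones and 1 inhibitor. The remaining genes are Psmc3ip, a meiotic recombination factor that shares only the name pattern, and Psme2b, a near copy of Psme2.

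RNA was sequenced from LKS cells, which are bone marrow cells sorted for Kit and Sca1 and against lineage markers, a gate that includes blood stem cells and early progenitors. There was 1 library from CD73-/- recipients (the KO library) and there were 2 libraries from wild-type (WT) recipients. CD73, encoded by Nt5e, is a surface enzyme that makes adenosine from AMP. The labels give no age, treatment or time for the recipients, and they state neither the origin of the cells (donor or recipient) nor whether the WT libraries came from separate mice, so all spreads may be technical. They also call the samples LLP cells without explaining the term.

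The core particle is a stack of rings: outer alpha rings form the gate, and inner beta rings carry the proteolytic sites. The cap binds ubiquitin chains, removes them and threads the substrate into the core with a ring of ATPases, while PA28 and PA200 activators open the core without ATP. In blood-forming stem cells, protein turnover by the proteasome is known to be needed for their maintenance. Interferon raises the PA28 subunits Psme1 and Psme2 and the inducible catalytic subunits, of which Psmb10 is described here.

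The libraries were shallow, with 264704 gene-level counts in KO against 361638 and 324954 in WT replicates 1 and 2. A total of 3 counts, the limit that a count of 0 allows, corresponded to 11.3 CPM (gene-level counts scaled to a library total of 1000000) in KO and to 8.30 and 9.23 CPM in WT. The deleted gene could not check the label, since Nt5e had 0 counts in all 3 libraries. The gate marker Kit had 555 CPM in KO against 517 and 637 in WT, and the gene of Sca1, Ly6a, had 136 CPM in KO against 166 and 58.5 in WT. The 8 markers of the gate and of stem and progenitor cells summed to 1590 CPM in KO against 2212 and 2403 CPM in WT (7 detected in KO, 8 in each WT library). Of these, 5 were below both WT libraries (Cd34, Flt3, Meis1, Gata2 and Slamf1) and 1, Procr, was above both. Cd34 had 416 CPM in KO against 636 and 597 in WT, and Gata2 had 106 against 337 and 234. Markers of dendritic and antigen-presenting cells summed to 2327 CPM in KO against 133 and 240 CPM in WT, with Siglech at 0 throughout and 5 of 7 genes detected in KO against 4 in each WT library. Mature neutrophil markers summed to 374 CPM in KO against 749 and 902 CPM in WT (6 of 7 detected in each library, Ly6g at 0), monocyte and macrophage markers to 306 against 171 and 618 CPM (3 of 5 detected in KO, 2 and 5 in WT), and erythroid markers to 518 against 420 and 129 CPM (3 of 7 detected in KO, 2 and 1 in WT; Hbb-bs, Hba-a1 and Hba-a2 among those at 0). B lineage markers summed to 7.56 CPM in KO against 16.6 and 61.6 CPM in WT, T and NK markers to 155 against 194 and 105 CPM, and stroma and endothelium markers to 128 against 144 and 191 CPM. The part of these cells in the values below was not tested, and in bulk RNA fewer cells of a type and less RNA per cell cannot be told apart.

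Psme2 lies on chromosome 14 and Psme2b on chromosome 11, and over 716 aligned bases of their GENCODE transcripts they differ at 5, with an identity of 99.3% and 264 bases in a row without a difference. The 80 coding bases below, from position 455 of the reading frame in Psme2 and position 479 in Psme2b, hold 3 of those differences in capitals. They are shown because a read that lies within the aligned bases and covers none of the 5 positions cannot be assigned to one of the genes.
Psme2: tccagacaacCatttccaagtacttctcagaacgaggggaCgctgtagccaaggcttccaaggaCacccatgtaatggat
Psme2b: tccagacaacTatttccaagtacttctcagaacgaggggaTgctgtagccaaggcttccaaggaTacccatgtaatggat

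Promoters were searched because NFE2L1, the transcription factor that raises proteasome genes when proteolysis is impaired, binds antioxidant response elements. The letters TGACNNNGC, read on both strands in the 250 bases before the start, occurred in 5 of the 40 members with an entry in the RefSeq promoter table (GRCm38.p6), which is 12.5%, against 11.5% of 27025 genes. The 5 were Psmb5, Psmb6, Psmc6, Psmd9 and Psmd12, and 2 are shown, for a catalytic core subunit and a cap subunit, with the match in capitals. The Psmb5 window is chr14:54617996-54618245 on the minus strand and the Psmd12 window is chr11:107479278-107479527 on the plus strand.
Psmb5: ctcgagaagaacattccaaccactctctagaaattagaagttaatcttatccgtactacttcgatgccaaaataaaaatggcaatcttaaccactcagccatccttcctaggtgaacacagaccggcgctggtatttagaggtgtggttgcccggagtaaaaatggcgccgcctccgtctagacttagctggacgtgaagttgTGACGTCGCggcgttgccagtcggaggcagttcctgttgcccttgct
Psmd12: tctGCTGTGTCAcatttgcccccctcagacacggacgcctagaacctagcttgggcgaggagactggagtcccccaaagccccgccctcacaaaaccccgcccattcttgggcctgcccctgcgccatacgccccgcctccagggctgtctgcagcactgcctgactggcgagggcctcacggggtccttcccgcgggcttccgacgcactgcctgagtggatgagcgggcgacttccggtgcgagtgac
The levels of these 5 genes follow with those of their groups, and KO lay above both WT libraries for Psmb5 and Psmb6, between them for Psmc6 and Psmd12, and below both for Psmd9.

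Across all members, the KO library held 5512 CPM (95% exact Poisson interval 5233 to 5802), against 4795 (4572 to 5026) and 4567 (4337 to 4805) CPM in the WT libraries. These intervals cover counting error only, and single members differed far more between libraries than counting allows. In the 38 members that reached 20 counts in at least 1 library, a chi-square comparison of 2 libraries averaged 11.0 per gene for KO with WT replicate 1, 14.1 for KO with WT replicate 2 and 12.1 for the WT pair, where counting error alone gives about 1. The WT libraries differed by at least 2-fold in 20 of these 38 members, and KO differed by as much from WT replicate 1 in 17 and from WT replicate 2 in 16. Over all 6377 genes with at least 20 counts, the median absolute log2 ratio was 1.19 and 1.33 for KO with WT replicates 1 and 2 and 1.08 for the WT pair, while in the members it was 0.86, 0.86 and 1.08.

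Of the 48 members, 40 passed the filter on low counts and were tested. No member passed the test: 0 rose and 0 fell when edgeR p-values were adjusted over all 7984 tested genes (threshold 0.05), where 0.100% of all tested genes were higher in KO and 0.00% lower. DESeq2 also called 0 members, beside 0.438% of all tested genes. It gave no adjusted p for at least Psma4, Psmb5, Psmb7, Psmb10, Psmc6, Psmd10, Psmd11 and Psmd12. These could not be called, so the DESeq2 count of 0 says nothing about them. At an unadjusted p under 0.05 edgeR gave 0 higher and 2 lower members, Psmd14 and Psmd11, beside 3.53% and 6.51% of all tested genes, and DESeq2 gave 4 members in either direction, beside 13.2% of all tested genes. The fitted log2 fold change, KO over WT, was positive for 24 and negative for 16 tested members, with a median of 0.25, beside a positive value in 43.1% of all tested genes and a median of -0.31. The KO value lay above both WT values in 20 tested members and below both in 10, where the same held for 31.1% and 38.2% of all tested genes. The filter keeps more readily a gene that is high in one library, so these tallies describe the tested members and support no statement on the group. Of the members with a count that were not tested, Psma5, Psmf1, Psmg1, Psmg3 and Psmg4 had at most 8 counts in any library. Psma8, the alpha subunit of the testis, Psmb11, the thymus-specific catalytic subunit, and Psmc3ip had 0 counts in every library.

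**Figure D1:**
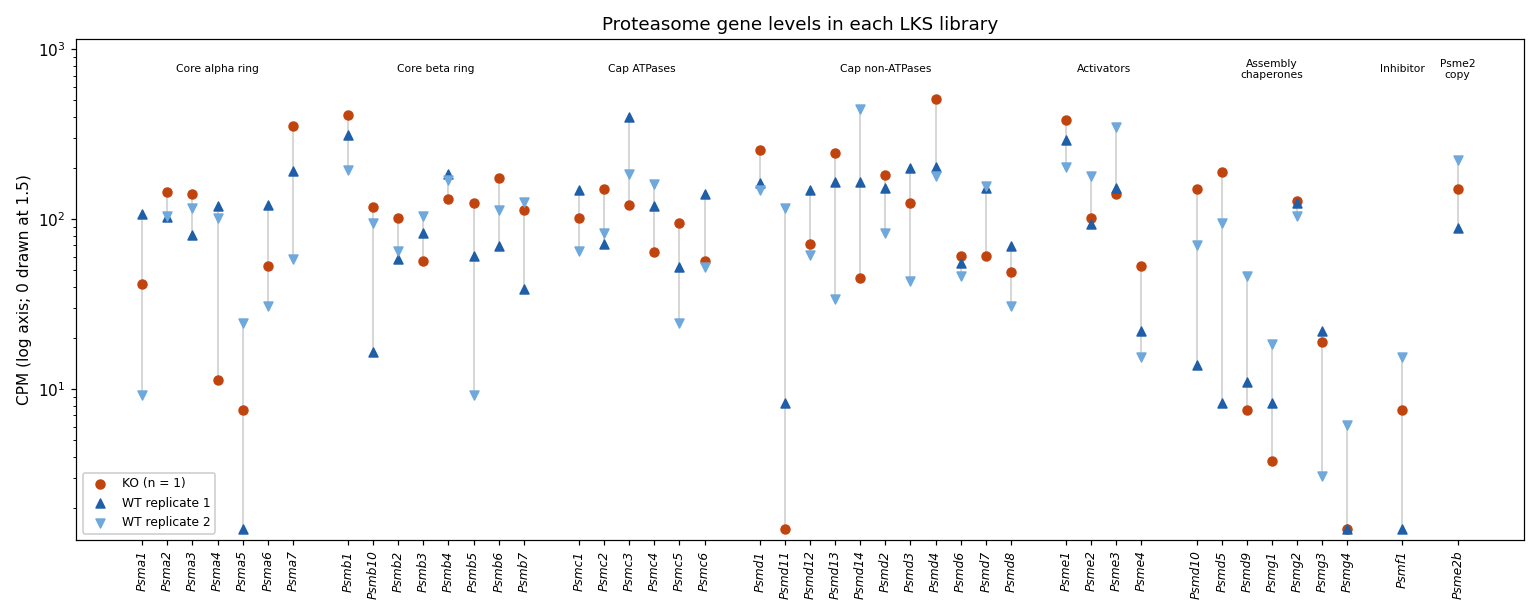
CPM on a log axis for each proteasome gene with a count, grouped by role, with 1 point per library (circle KO, upward triangle WT replicate 1, downward triangle WT replicate 2; a value of 0 is drawn at 1.5). The triangles of a gene often lie as far apart as the circle lies from either of them, and Psmd4, Psmd14 and Psma4 are among the genes whose circle stands apart from both triangles.

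The alpha ring, which gates the core, gave 752 CPM in KO (95% exact Poisson interval 651 to 864) against 722 and 446 CPM in WT, summed over its 8 genes. KO thus lay close to one WT library and above the other. Its members differed in sign, and none passed the test. Psma7 had 355 CPM in KO (94 counts) against 191 and 58.5 CPM in WT (69 and 19 counts), and its fold change on the log2 scale was 1.54 (SE 0.92, edgeR adjusted p 0.62). KO stood above both WT libraries, which themselves were more than 2-fold apart. Psma4 had 11.3 CPM in KO (3 counts) against 119 and 102 CPM in WT (43 and 33 counts). Here the WT libraries lay close together and KO far below them, with a log2 fold change of -3.20 (SE 1.81, edgeR adjusted p 0.58). Psma2 and Psma3 were above both WT libraries at 144 CPM in KO against 102 and 105 CPM, and at 140 CPM in KO against 80.2 and 117 CPM. Psma1 and Psma6 lay between the WT values. In Psma1 the WT pair itself spread over 108 and 9.23 CPM.

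The beta ring holds the catalytic sites, and its sum was 1228 CPM in KO (1098 to 1369) against 824 (733 to 923) and 877 (778 to 985) CPM in WT, or 850 ± 37.5 CPM (SD, n = 2). The KO sum was 1.44 times the WT mean, and its counting interval did not overlap those of either WT library. Such a gap also arose within the WT pair, as for the alpha ring, with intervals of 637 to 815 and 376 to 525 CPM. Over the core as a whole the sum was 1980 CPM in KO against 1546 and 1323 CPM in WT, a log2 ratio of 0.46, or 0.36 and 0.58 when KO was set against WT replicate 1 or 2 only. An exact permutation test of 1 KO against 2 WT libraries cannot give a p below 0.333, so no test was run on these sums.

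Of the constitutive catalytic subunits, Psmb5, which cuts after hydrophobic residues, had 125 CPM in KO (33 counts) against 60.8 and 9.23 CPM in WT (22 and 3 counts). Its log2 fold change was 1.85 (SE 1.52, edgeR adjusted p 0.78). Psmb6, the caspase-like subunit, had 174 CPM in KO against 69.1 and 114 CPM in WT, with a log2 fold change of 0.97 (SE 1.15, edgeR adjusted p 0.84). KO was above both WT libraries for these 2 genes and not for the third, the trypsin-like Psmb7, at 113 CPM in KO against 38.7 and 126 CPM in WT. Psmb10, which replaces Psmb7 in the immunoproteasome, had 117 CPM in KO (31 counts) against 16.6 and 95.4 CPM in WT (6 and 31 counts). KO was near WT replicate 2 and far from WT replicate 1, and the log2 fold change was 1.11 (SE 1.43, edgeR adjusted p 0.85). Psmb1, a structural subunit and the most abundant of the ring, had 408 CPM in KO (108 counts) against 312 and 194 CPM in WT (113 and 63 counts). Psmb4, another structural subunit, went the other way, at 132 CPM in KO (35 counts) against 185 and 169 CPM in WT (67 and 55 counts). Of the remaining structural subunits, Psmb2 was above and Psmb3 below both WT values, and neither passed the test. In all, 5 of the 9 beta-ring genes were above both WT libraries, 2 were below both, and Psmb11 was at 0. Among all tested genes, 31.1% were above both and 38.2% below both, and so few members support no statement on the ring.

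**Figure D2:**
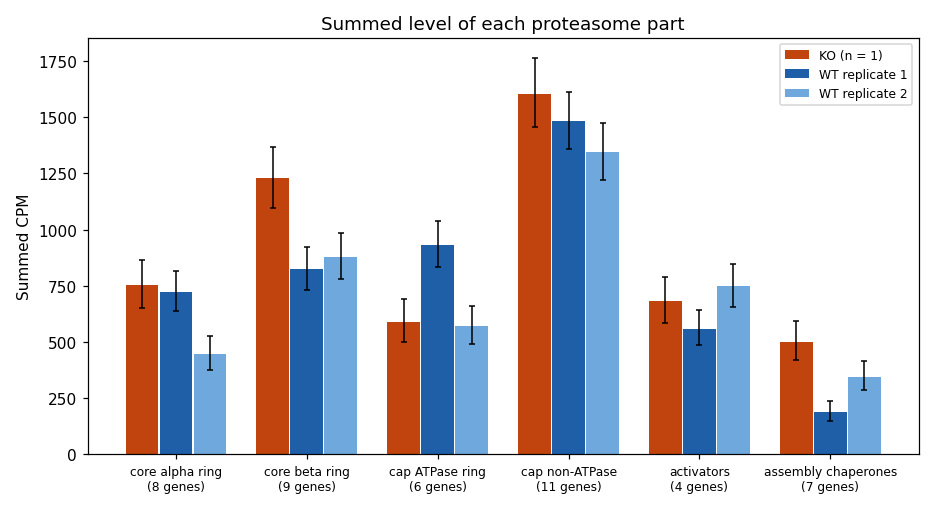
Summed CPM of each group of proteasome genes by library (bars from 0; error bars are 95% exact Poisson intervals, counting error only). The KO bar exceeds both WT bars with no overlap of error bars for the beta ring and the assembly chaperones, while for the cap ATPases and the activators the KO bar lies between the WT bars. The error bars of the WT pair also fail to overlap each other for the alpha ring, the cap ATPases, the activators and the assembly chaperones.

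Over the cap as a whole, KO lay between the WT libraries. Its 17 subunits summed to 2195 CPM in KO (2020 to 2381) against 2414 and 1914 CPM in WT, a log2 ratio of 0.02. The sum changed sign with the WT library used, being -0.14 for WT replicate 1 and 0.20 for WT replicate 2. It also rested on single genes: leaving out Psmd4 gave 1685 CPM in KO against 2212 and 1736 CPM in WT, below both WT libraries with a log2 ratio of -0.23, and leaving out Psmd14 gave a log2 ratio of 0.21. The ATPase ring, which unfolds substrates, summed to 589 CPM in KO against 932 and 569 CPM in WT, and the other cap subunits to 1606 CPM in KO against 1482 and 1345 CPM in WT.

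Some single cap subunits stood well apart from the WT pair. Psmd14, the deubiquitinase that strips ubiquitin chains from substrates (chromosome 2, 61711694 to 61800376, plus strand, GRCm38), had 45.3 CPM in KO (12 counts) against 166 and 446 CPM in WT (60 and 145 counts). KO was below both WT libraries, and the WT libraries were also more than 2-fold apart. The log2 fold change was -2.70 (SE 1.09, edgeR adjusted p 0.30), the smallest adjusted p of any member. Psmd4, a ubiquitin receptor of the cap (chromosome 3, 95032688 to 95042614, minus strand), had 510.0 CPM in KO (135 counts) against 202 and 178 CPM in WT (73 and 58 counts). The WT libraries lay close together at 190.2 ± 16.5 CPM (SD, n = 2), and the KO interval of 428 to 604 CPM did not reach them. Its log2 fold change was 1.46 (SE 0.77, edgeR adjusted p 0.52). That interval covers counting error only. Such gaps also occurred within the WT pair, as for Psmc3 (336 to 469 and 141 to 238 CPM). Of 6377 genes with at least 20 counts, 12.0% were at least 2-fold above both WT libraries on CPM plus 1. Psmd7, the partner of Psmd14 in the cap's deubiquitinating module, had 60.4 CPM in KO (16 counts) against 152 and 157 CPM in WT (55 and 51 counts), a log2 fold change of -1.31 (SE 1.26, edgeR adjusted p 0.81). Both genes of that module were thus at least 2-fold below each WT library, on CPM plus 1, without passing the test. Of the 6377 genes compared above, 22.6% lay as far below both WT libraries, so these genes support no statement on the module. Psmd11, a lid subunit, had 0 counts in KO against 3 and 38 counts in WT. A floor of 3 KO counts is 5.53-fold lower than the WT mean of 62.6 ± 76.8 CPM (SD, n = 2; edgeR adjusted p 0.44). With that SD the fold is no firm bound. It rests on WT replicate 2, because WT replicate 1 was itself at the floor and allows no fold.

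Psmd13, a lid subunit, had 246 CPM in KO (65 counts) against 166 and 33.8 CPM in WT (60 and 11 counts), a log2 fold change of 1.32 (SE 1.05, edgeR adjusted p 0.76). Its exons share 342 bases with those of Sirt3 on the opposite strand (2 counts in KO against 141 and 26 in WT), so the split of reads between the 2 genes is uncertain where strand use is not stated. Psmd1, a large scaffold subunit, had 257 CPM in KO (68 counts) against 163 and 148 CPM in WT (59 and 48 counts). Psmd2, the other large scaffold subunit, had 181 CPM in KO (48 counts) against 152 and 83.1 CPM in WT (55 and 27 counts). Both scaffold genes were above both WT libraries, with log2 fold changes of 0.76 (SE 0.96) and 0.66 (SE 1.09). Among all tested genes 31.1% were above both, so these 2 genes support no statement on the scaffold. Exons of Psmd1 also share 301 bases with Gm21972 on the same strand, for which no count was available. Psmd3 lay between the WT values, at 125 CPM in KO (33 counts) against 199 and 43.1 CPM in WT (72 and 14 counts). Psmd12 did too, at 71.8 CPM in KO (19 counts) against 149 and 61.6 CPM in WT (54 and 20 counts), and so did Psmd8, while Psmd6 was above both by a small margin, at 60.4 CPM in KO against 55.3 and 46.2 CPM.

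Among the ATPases, Psmc3 had 121 CPM in KO (32 counts) against 398 and 185 CPM in WT (144 and 60 counts), a log2 fold change of -1.23 (SE 0.95, edgeR adjusted p 0.75). Psmc4 had 64.2 CPM in KO (17 counts) against 119 and 160.0 CPM in WT (43 and 52 counts), a log2 fold change of -1.07 (SE 1.28, edgeR adjusted p 0.84). Both were below each WT library. Psmc2 and Psmc5 were above each WT library, at 151 CPM in KO against 71.9 and 83.1 CPM, and at 94.4 CPM in KO against 52.5 and 24.6 CPM. Psmc1 and Psmc6 lay between the WT values, Psmc1 with 27 counts in KO against 54 and 21 in WT and Psmc6 with 15 against 51 and 17. The ring's subunits, which assemble one of each kind, thus stood 2 above, 2 below and 2 between, and none passed the test. The shares over all tested genes were 31.1% above and 38.2% below. Exons of Psmc3 share 215 bases with Slc39a13 on the opposite strand (0 counts in KO against 8 and 2 in WT), fewer counts than Psmc3 itself had.

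**Figure D3:**
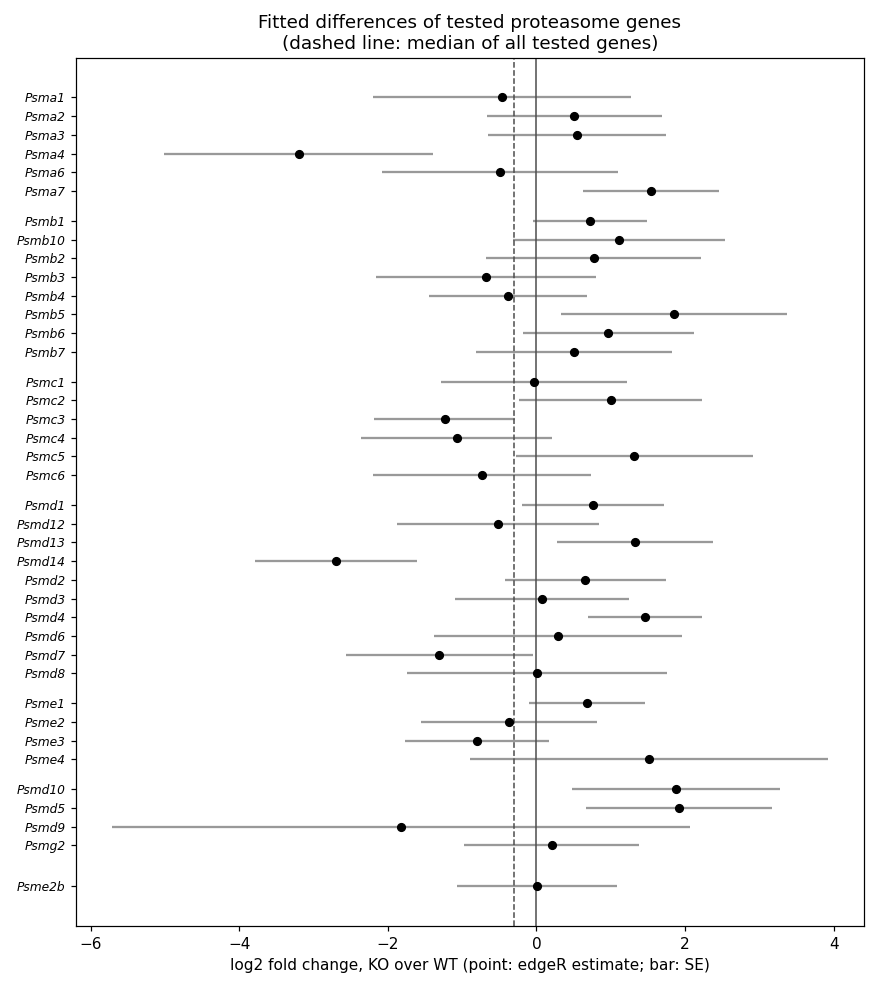
Fitted log2 fold change, KO over WT, of the tested proteasome genes with a count in KO (points), with the SE (bars), grouped as in the plot of levels by library; the dashed line is the median of all tested genes, -0.31. The SE bars span zero for most genes, and Psma4 and Psmd14 lie furthest to the left, at -3.20 and -2.70.

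The activators summed to 680.0 CPM in KO (584 to 787) against 559 and 748 CPM in WT, so the KO sum lay between the WT values. Psme1, the alpha subunit of the interferon-induced PA28 (chromosome 14, 55578494 to 55581527, plus strand), was one of the most abundant members, with 385 CPM in KO (102 counts) against 290.3 and 203 CPM in WT (105 and 66 counts). KO was above both, with a log2 fold change of 0.68 (SE 0.78, edgeR adjusted p 0.84). Its partner Psme2 had 102 CPM in KO (27 counts) against 94.0 and 178 CPM in WT (34 and 58 counts), and Psme2b had 151 CPM in KO (40 counts) against 88.5 and 222 CPM in WT (32 and 72 counts). Both lay between the WT values and kept the order of the libraries, WT replicate 2 highest and WT replicate 1 lowest, and, as the sequences above show, reads over their shared stretches cannot be told apart. Psme3, the nuclear PA28 gamma, had 140 CPM in KO (37 counts) against 152 and 351 CPM in WT (55 and 114 counts), and its log2 fold change was -0.80 (SE 0.97, edgeR adjusted p 0.84). PA200, encoded by Psme4, had 52.9 CPM in KO (14 counts) against 22.1 and 15.4 CPM in WT (8 and 5 counts). Of the interferon-linked genes, Psme1 and Psmb10 thus lay above both WT libraries in CPM and Psme2, which shares reads with Psme2b, between them. In raw counts neither Psme1 nor Psmb10 (31 counts in KO against 6 and 31 in WT) was above both, so their place rests on scaling to library totals. Among all tested genes 31.1% were above both, and so few genes support no statement on interferon-linked genes. Markers of dendritic and antigen-presenting cells were at 2327 CPM in KO against 133 and 240 CPM in WT. A link between these genes and those markers was not tested.

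The assembly chaperones summed to 499 CPM in KO (417 to 591) against 188 (146 to 238) and 345 (284 to 415) CPM in WT, 1.87 times the WT mean of 266 ± 111 CPM (SD, n = 2). The sum was carried by chaperones of the cap base. Psmd5 had 189 CPM in KO (50 counts) against 8.30 and 95.4 CPM in WT (3 and 31 counts), a log2 fold change of 1.91 (SE 1.25, edgeR adjusted p 0.67). Psmd10, also known as the oncoprotein gankyrin, had 151 CPM in KO (40 counts) against 13.8 and 70.8 CPM in WT (5 and 23 counts), a log2 fold change of 1.88 (SE 1.40, edgeR adjusted p 0.74). KO was above both WT libraries in both genes, and in each WT replicate 1 was more than 5-fold below WT replicate 2. The third cap chaperone, Psmd9, went the other way with 2 counts in KO against 4 and 15 in WT. Of the core chaperones, Psmg2 had 128 CPM in KO against 124 and 105 CPM in WT, and Psmg1, Psmg3 and Psmg4 had at most 8 counts in any library. The inhibitor Psmf1 had 2 counts in KO against 0 and 5 in WT.

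A rule of size without a test asked which members that reached 20 counts anywhere were 2-fold or more above both WT libraries, or below both, on CPM plus 1. It picked 3 of 38 higher members, Psmb5, Psmd4 and Psmd10, and 4 lower ones, Psma4, Psmd7, Psmd11 and Psmd14, where 12.0% of 6377 genes were higher and 22.6% lower by the same rule. With WT replicate 1 in the place of KO the rule picked 5 higher and 4 lower members, beside 13.5% and 11.8% of all genes, and with WT replicate 2 it picked 3 higher and 6 lower, beside 14.8% and 14.5%. Psmd5 fell just short of the rule because it was less than 2-fold above WT replicate 2. Psmd11 met the rule against WT replicate 1 only through the added 1 CPM. It had 0 counts in KO against 3 there, which allows no fold, so its place among the lower members rests on WT replicate 2.

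**Figure D4:**
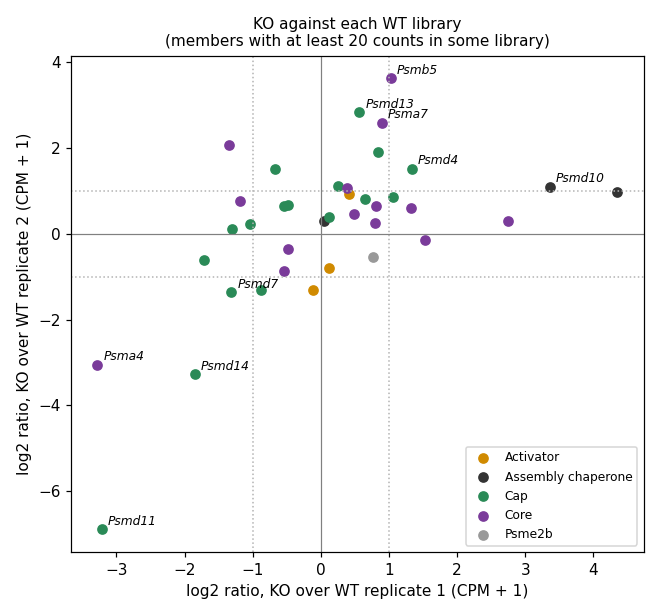
Log2 ratio of KO to WT replicate 1 (horizontal) and to WT replicate 2 (vertical) on CPM plus 1, with 1 point per member that reached 20 counts in any library, coloured by role; dotted lines mark 2-fold, and both axes share the KO value. Psmb5, Psmd4 and Psmd10 lie beyond the dotted lines at the upper right, and Psma4, Psmd7, Psmd11 and Psmd14 at the lower left. The horizontal position of Psmd11 rests on 0 counts in KO against 3 in WT replicate 1, which allows no fold.

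Levels of different genes can be set side by side only per length, for which the deposited FPKM values were summed over a gene's transcripts. The highest FPKM within each group, averaged over the 3 libraries, belonged to Psme1 among activators (401 in KO against 299.9 and 210.3 in WT), Psmb1 in the beta ring (399 in KO against 303 and 189), Psmd4 among non-ATPase cap subunits (387 in KO against 152 and 135) and Psma7 in the alpha ring (378 in KO against 201 and 61.9). Psmc3 was highest of the ATPases, at 74.9 FPKM in KO against 245 and 114 FPKM in WT, and Psmg2 of the chaperones, at 123 FPKM in KO against 118 and 99.6 FPKM in WT. The lowest detected members were Psma5 in the alpha ring (6.29 FPKM in KO against 0 and 20.4 in WT), Psmb10 in the beta ring (93.5 in KO against 13.1 and 75.7), Psmc5 of the ATPases (75.0 in KO against 41.4 and 19.4), Psmd11 of the other cap subunits (listed at 0 in KO against 4.78 and 67.6), Psme4 of the activators (8.32 in KO against 3.45 and 2.41) and Psmg4 of the chaperones (listed at 0 in KO and in WT replicate 1, and 13.0 in WT replicate 2). Highest and lowest here refer to that mean over the 3 libraries, and single libraries gave other orders. In KO, Psmc2 at 86.0 FPKM was above Psmc3, and Psmb3 at 78.6 FPKM was below Psmb10. In WT replicate 2, Psmd14 at 292 FPKM was above Psmd4, and Psme2 at 248 FPKM was above Psme1. Subunits that assemble in equal numbers thus had unequal FPKM values. The ATPase ring ran from 36.7 to 86.0 FPKM in KO, against 40.5 to 245 and 19.4 to 114 FPKM in the WT libraries.

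Of 27 further genes of the ubiquitin and proteasome pathway that do not bear a subunit symbol, 25 were tested. In the edgeR test 0 rose and 0 fell, beside 0.100% and 0.00% of all tested genes. At an unadjusted p under 0.05, 1 was higher and 1 lower, beside 3.53% and 6.51% of all tested genes. So few genes support no statement on the pathway. Ubb, a gene that encodes ubiquitin as a chain of repeats, had 1300.0 CPM in KO against 1117 and 745 CPM in WT. Rps27a, which encodes ubiquitin fused to a ribosomal protein, had 397 CPM in KO against 760.4 and 492 CPM in WT. KO was above both WT libraries for Ubb and below both for Rps27a, and neither passed the test. Ubqln1, which shuttles tagged proteins to the proteasome and was named after its values were seen, had 1 count in KO against 40 and 41 in WT (edgeR adjusted p 0.35).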

How the data were processed

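Per the labels' protocols, RNA of sorted LKS cells was purified with a micro kit and NEB kits were used for the libraries. The files deposited by the authors list, for each RefSeq transcript, an FPKM value and a raw count. STAR and mm10 are named in the submitters' processing notes without roles. Which tools counted reads and estimated FPKM, and whether strand was used, is not given in the sources used here. Of 42574 transcript rows, 0 lacked a symbol. A gene's count was the highest over its rows, since transcripts repeat shared reads. Levels are CPM on the sum of gene counts, and CPM intervals are exact Poisson at 95%.

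The test was the quasi-likelihood F-test of edgeR 4.0.16 (R 4.3.3) after filterByExpr and TMM scaling, with p-values adjusted by the Benjamini-Hochberg method over 7984 genes. There is 1 residual degree of freedom, from the WT pair, and the single KO library is taken to vary as the WT pair does. SE was obtained from the log2 fold change and the F statistic, and is left out where KO had 0 counts. edgeR estimated the common coefficient of biological variation at 0.81. DESeq2 1.42.0 was an alternative, beside other scalings, filters and gene counts. Coordinates are from RefSeq GRCm38.p6, the assembly of mm10, and transcripts and overlaps from GENCODE M21.

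The members, role groups and pathway list were chosen with earlier results of these data known. Members are named with values if they had at least 50 counts in some library, differed at least 2-fold from both WT libraries with at least 20 counts, were catalytic or linked to interferon, or were the highest or lowest of their group by FPKM. Others named are for completeness of a group. Pathway genes are named if past the test or among the 4 most abundant, with Ubqln1 as an exception; some of these are not reported here.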

Additional observations from a re-analysis of the deposited data

How the results depend on the processing

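The count of 0 proteasome members past the test held under every alternative run: DESeq2 size factors, upper-quartile factors, library totals, no filter on low counts, at least 10 counts in every library or 50 in any, the mean over transcript rows, and the DESeq2 test. The stricter filter tested only 31 members, and the DESeq2 test gave some members no adjusted p. In these 2 runs the 0 covers only the members that could be called. At an unadjusted p under 0.05 the stricter filter gave 1 of 31 members beside 340 of 3992 genes. The DESeq2 test gave 4 of 40 beside 1055 of 7984, and the run without a filter 3 of 45 beside 833 of 11402. Each other setting gave 2 of 40 members, beside 709 to 798 of 7920 or 7984 genes. Over all genes the count of 8 became 3 with upper-quartile factors, 4 without a filter, 0 with the stricter filter (340 at an unadjusted p under 0.05), 1 with the mean over rows and 35 with the DESeq2 test; the cause was not tested. The median log2 fold change of tested members, 0.25, ranged from 0.07 to 0.26 under these settings and from 0.22 to 0.58 without either WT replicate. With the stricter filter the median of all tested genes was -0.10 and that of members 0.18. Log2 ratios of summed CPM moved by less than 1 SD of the single-WT values under other scalings, FPKM and row means. Leaving out Psmd4 turned the cap's ratio to -0.23, while the core's was 0.41 without Psmb1. Without either WT replicate they ranged from 0.36 to 0.58 for the core, from -0.14 to 0.20 for the cap, from -0.14 to 0.28 for activators and from 0.53 to 1.41 for assembly chaperones. Of 184 refitted values of the 27 members in the named group that were tested, 179 kept their direction. Psmd3 turned to -0.0088 with upper-quartile factors, and Psme2b to -0.037 with upper-quartile factors, -0.042 with library totals, -0.0045 without a filter and -0.0096 with the stricter filter, so neither has a direction. Against single WT libraries 7 of the 27 changed sign between the replicates. The FPKM sum over all rows, the sums without single members and the alternatives for assembly chaperones were chosen after the data were seen. No paired analysis was possible because the KO library carries no replicate number. Depth limits all single-gene values: 28 of the 48 members never reached 50 counts, and 1 KO library gives no measure of spread among KO mice.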
